A study of Homo sapiens with 20 samples.

Results

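The genes described here were lower with estradiol (E2) than with vehicle after 3 h in SUM44 cells and were close to vehicle again at 24 h. SUM44 is an established breast cancer cell line from an invasive lobular carcinoma, and its expression was read on Affymetrix human expression arrays. Each of 11963 genes was read from 1 probe set, the brightest on average across the 20 arrays among those annotated to that gene alone. Members were selected on 3 values. The difference of group means between E2 and vehicle at 3 h had to be at or below -0.585 on the log2 scale, which is 1.5-fold. The same difference at 24 h had to lie within 0.3 of 0, and the vehicle mean at 3 h had to be at least 6.5. Of the 11963 genes, 309 passed the 3 h threshold, 287 also passed the level threshold, and 82 passed all 3.

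There were 5 groups of 4 arrays, which the series text describes as biological quadruplicates of cultures of this 1 line. Every culture had first spent 3 days without hormone, in charcoal-stripped serum at 2% by the series text and 10% by the sample text, a conflict not settled here. The baseline group was taken at 0 h with nothing added, the vehicle groups received 0.01% ethanol for 3 h or 24 h, and the E2 groups received 1 nM estradiol for 3 h or 24 h. For the 24 h E2 group, titles and descriptions name E2 but the treatment entry of its 4 arrays says baseline, and the titles were followed. All 11 measured luminal epithelial markers lay above the level under which the dimmest 25% of genes lie (6.11), at 11.28 to 13.91, and 0 of the 6 measured basal markers did. Of 10 measured stromal and 10 measured immune or endothelial markers, 3 each lay above it. Over all 20 arrays the mean of the basal markers ran from 5.27 to 5.59, that of the stromal markers from 5.40 to 5.57 and that of the immune or endothelial markers from 5.33 to 5.52. The mean of the luminal markers, which include the member FOXA1, did move with the groups. It lay at 12.60 to 12.65 with E2 at 3 h, below the 12.88 to 12.90 of vehicle at 3 h and of baseline, and at 13.04 to 13.06 with E2 at 24 h, above the 12.82 to 12.86 of vehicle at 24 h. At 3 h 5 of the 11 were called lower, the member FOXA1 among them, and 4 higher with E2. The largest 3 h differences were -2.07 in GATA3, -1.30 in FOXA1 and 0.59 in KRT19, and the others ran from -0.29 in ESR1 to 0.36 in XBP1. At 24 h AGR2 read 12.02 with vehicle and 13.62 with E2. The part of this shift in the members' results was not tested. Arrays of 1 group correlated at 0.998 to 0.999, 0 pairs were identical, and the number of arrays limits the precision.

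Estradiol binds the estrogen receptor, a nuclear receptor that acts as a transcription factor, and early repression of genes by it is well known in luminal breast cancer cells. FOXA1, a pioneer factor that opens chromatin for this receptor, and TFAP2A, an AP-2 factor that shares many of its binding sites, belong to the transcriptional circuitry of luminal cells. The members also held nuclear receptors, WNT and G-protein-coupled receptors, kinases, regulators of small GTPases and proteins of the actin and microtubule cytoskeleton. The untreated baseline shows which 3 h group lay apart from the level at 0 h. It was taken at 0 h with nothing added, so vehicle at 3 h, not baseline, is the control matched in time. Where vehicle rose and E2 stayed at baseline, whether E2 held back a rise was not tested.

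At 3 h FOXA1 was below baseline with E2 and above it with vehicle, and ID1 was above baseline with vehicle alone. TUBB2A was above baseline in both 3 h groups. The promoter windows of these 3 members are shown because they stand for different courses described below. Each is the only RefSeq window of its gene in GRCh38.p14, with 250 bases before and 50 after the start, written 5′ to 3′ on the strand of the gene. Capitals mark matches of the motifs searched on both strands.
FOXA1 chr14:37595200-37595499 minus strand: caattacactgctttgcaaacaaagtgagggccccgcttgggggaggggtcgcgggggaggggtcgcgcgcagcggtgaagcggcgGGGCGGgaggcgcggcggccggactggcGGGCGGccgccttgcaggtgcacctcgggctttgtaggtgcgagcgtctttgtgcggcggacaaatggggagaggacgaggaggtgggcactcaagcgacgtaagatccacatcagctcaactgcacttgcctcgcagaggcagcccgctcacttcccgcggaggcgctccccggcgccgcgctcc
ID1 chr20:31605039-31605338 plus strand: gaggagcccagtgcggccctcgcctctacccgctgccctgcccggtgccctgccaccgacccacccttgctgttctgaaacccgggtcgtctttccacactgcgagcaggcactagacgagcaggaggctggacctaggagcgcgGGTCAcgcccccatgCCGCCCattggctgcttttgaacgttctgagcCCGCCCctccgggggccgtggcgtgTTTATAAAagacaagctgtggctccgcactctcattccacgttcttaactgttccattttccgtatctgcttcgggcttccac
TUBB2A chr6:3157495-3157794 minus strand: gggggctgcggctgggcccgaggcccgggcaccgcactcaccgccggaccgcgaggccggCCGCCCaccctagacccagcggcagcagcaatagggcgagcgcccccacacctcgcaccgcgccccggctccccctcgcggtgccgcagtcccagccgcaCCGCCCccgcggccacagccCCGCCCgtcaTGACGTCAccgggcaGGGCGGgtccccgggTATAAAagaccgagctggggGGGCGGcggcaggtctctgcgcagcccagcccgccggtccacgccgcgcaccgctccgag
The capitals in the FOXA1 window are 2 GC boxes (GGGCGG). The ID1 window held 1 GGTCA, one arm of the estrogen response element, with 2 GC boxes and a TATA box (TATAAA) that overlaps its own match on the other strand. The TUBB2A window held 5 GC boxes, 1 TATA box and 1 cyclic AMP response element (TGACGTCA).

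RefSeq windows were found for 66 of the 82 members, 122 windows in all, and for 9562 of all genes, 14057 windows. GGTCA was in 37 member windows (30.3%), of 32 genes, and in 34.8% of all windows. A full element, GGTCA followed within 0 to 3 bases by TGACC, was in 0 member windows and in 27 of all windows (0.192%). GC boxes were in 69.7% of member windows and 59.2% of all, TATA boxes in 12.3% and 8.54%, the E-box CACGTG in 8.20% and 8.76%, the AP-1 site TGANTCA in 2.46% and 6.06%, and the cyclic AMP response element in 1.64% and 2.58%. The GC box was the most frequent of these motifs in both sets. These are matches of letters in a window of 300 bases and were not tested. By the order of measured genes in the same assembly, NR4A2 and GPD2 were the 1 pair of members that were direct neighbours.

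The 3 h difference ran from -1.43 in GTF2H2B to -0.59 in ZNF239, with a median of -0.68, and 9 members were at least 2-fold lower. The 15 most negative were GTF2H2B (-1.43 ± 0.13, standard error of the fit here and below), TNFAIP8 (-1.37 ± 0.05), FOXA1 (-1.30 ± 0.06), NR3C2 (-1.17), STK17B (-1.15), PIK3R3 (-1.10), CACNB2 (-1.10), PRR15L (-1.04), KLF5 (-1.02), NAB1 (-0.99), TFAP2A (-0.97), TRIM36 (-0.94), TBC1D30 (-0.93), APEX2 (-0.91) and MARK1 (-0.90). These values chose the members and carry no test. A lower value in such bulk RNA cannot tell fewer cells of a kind from less RNA per cell. The probe set of GTF2H2B, a copy of a subunit of the general factor TFIIH, may share signal with the near-identical GTF2H2 and GTF2H2C. Its mean at 3 h lay 0.67 above baseline with vehicle and at -0.76 from it with E2. The median 3 h difference over all genes was 0.0002, and over genes at the level threshold -0.01.

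At 24 h the median difference between E2 and vehicle was -0.15, with 63 members below 0 and 19 above, and 25 lay within 0.1 of 0. By limma with Benjamini-Hochberg adjustment over all genes, 41 members were called lower and 9 higher at 24 h, where 24.2% of all genes were called lower and 21.5% higher. The rule used that contrast, so nothing is read from these counts. The limit of 0.3 bounds the size of a difference and does not make it 0. Just inside the 24 h threshold were GTF2H2B (-0.30), PRDM4 (-0.30) and BAZ2B (-0.30), and just outside LHX2 (0.30), SGCE (-0.31) and TRAFD1 (-0.31). At the 3 h threshold ZNF239 (-0.59), TMEM40 (-0.59) and RPS6KA3 (-0.59) lay inside and TET3 (-0.58), ELMO2 (-0.57) and YEATS2 (-0.57) outside. At the level threshold ID1 (6.61), ZNF239 (6.68) and RIGI (6.73) lay inside and OXTR (6.35), NR2F1 (6.10) and SLCO4C1 (5.92) outside.

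**Figure D1:**
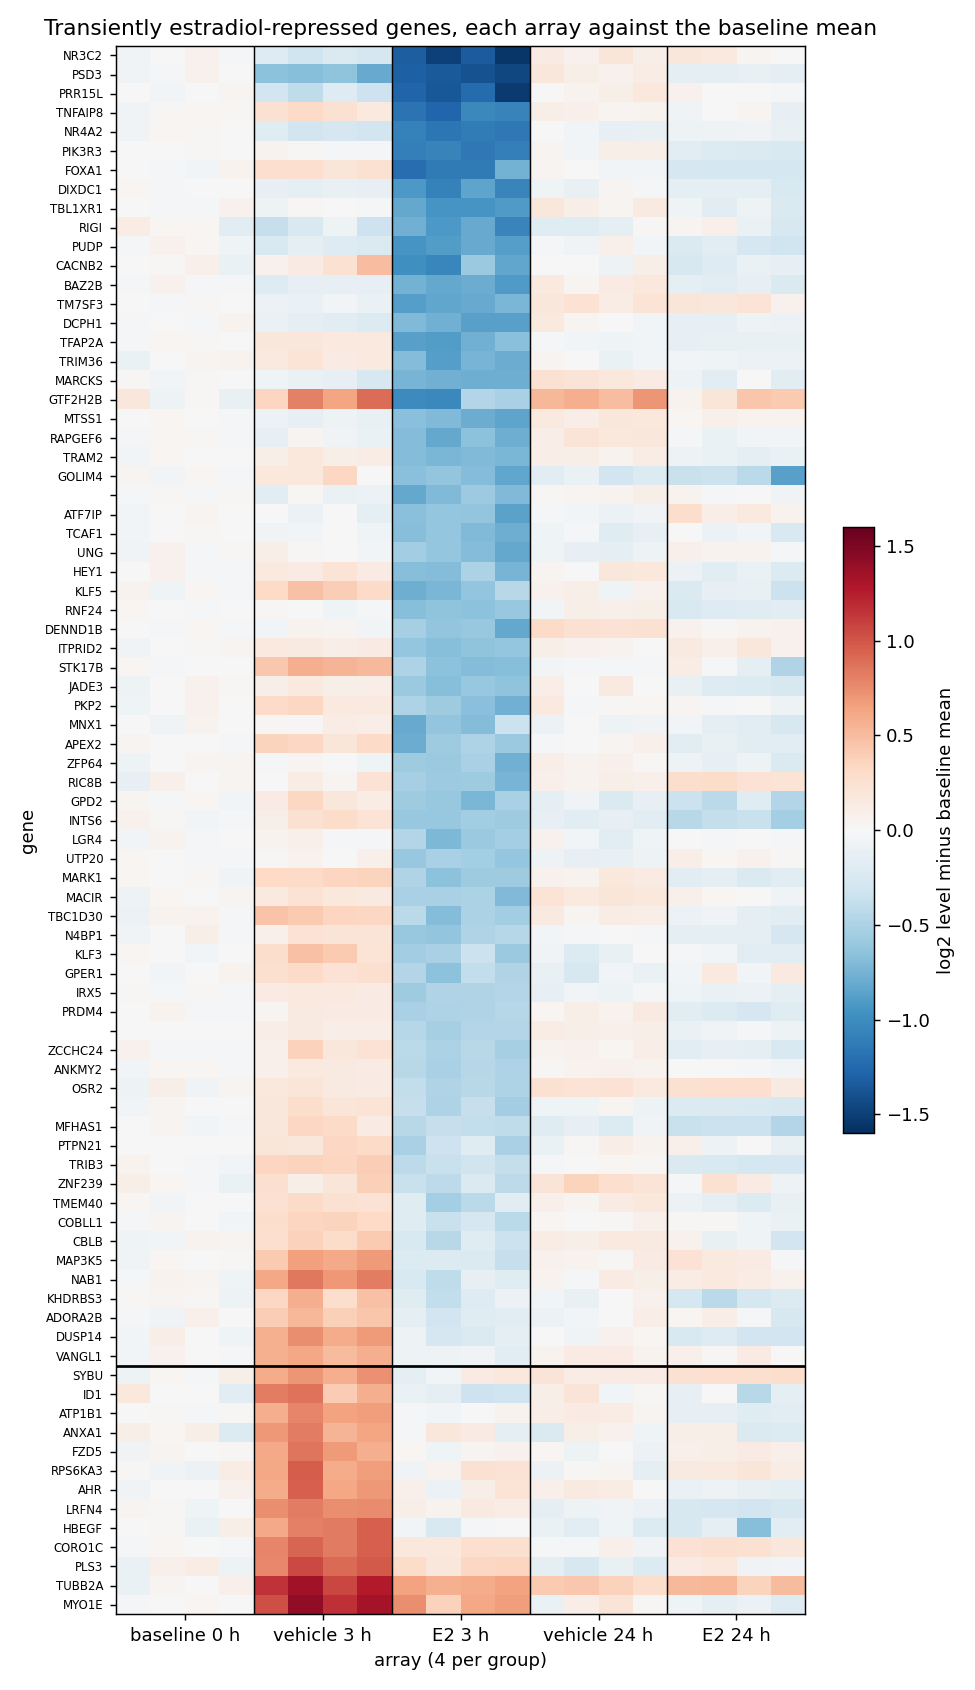
Log2 level of each of the 82 members (rows) in each of the 20 arrays (columns, 4 per group) minus the member's baseline mean, blue for lower and red for higher, with the 13 members whose E2 arrays at 3 h were not all below baseline under the line and 3 rows without a name. The E2 columns at 3 h are the bluest, many vehicle columns at 3 h are red, and both 24 h groups are close to white.

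Beside the baseline the 82 members differed in which 3 h group lay apart from it, and in many both groups did. In 69 members (84.1%) all 4 E2 arrays at 3 h lay below all 4 baseline arrays, which held for 19.5% of all genes. In 5 members (6.1%) the E2 arrays all lay above baseline, against 15.6% of all genes, and in 8 they overlapped it. In 52 members (63.4%) all vehicle arrays at 3 h lay above all baseline arrays, against 12.1% of all genes. In 11 members (13.4%) they all lay below, against 13.3% of all genes, and in 19 they overlapped, as in 8928 of all 11963 genes. A gene enters by a low E2 value or a high vehicle value, so these shares partly follow from the selection and were not tested.

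The median of E2 minus baseline at 3 h was -0.58 and that of vehicle minus baseline 0.20. Past the 1.5-fold size were 40 members for E2 below baseline and 17 for vehicle above it. The same shares over all genes were not counted and the rule used both 3 h groups, so nothing is read from these counts. The comparisons of E2 and of vehicle use the same baseline arrays. Of the 103 genes repressed at both times by the same 3 h and level thresholds, all E2 arrays at 3 h were below baseline in 101. In 47 of them (45.6%) the vehicle arrays at 3 h were all above baseline and in 29 (28.2%) all below. The difference between these sets was not tested.

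Control transcripts for RNA quality also differed between the 3 h groups. The 3′ minus 5′ difference of ACTB was 0.315 ± 0.027 with vehicle and 0.385 ± 0.032 with E2 (SD, n = 4), with 0.466 ± 0.010 at baseline. That of GAPDH was -0.116 ± 0.0085 with vehicle and -0.138 ± 0.011 with E2. Neither pair of 3 h groups overlapped, and the part of this in the members' differences was not tested.

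**Figure D2:**
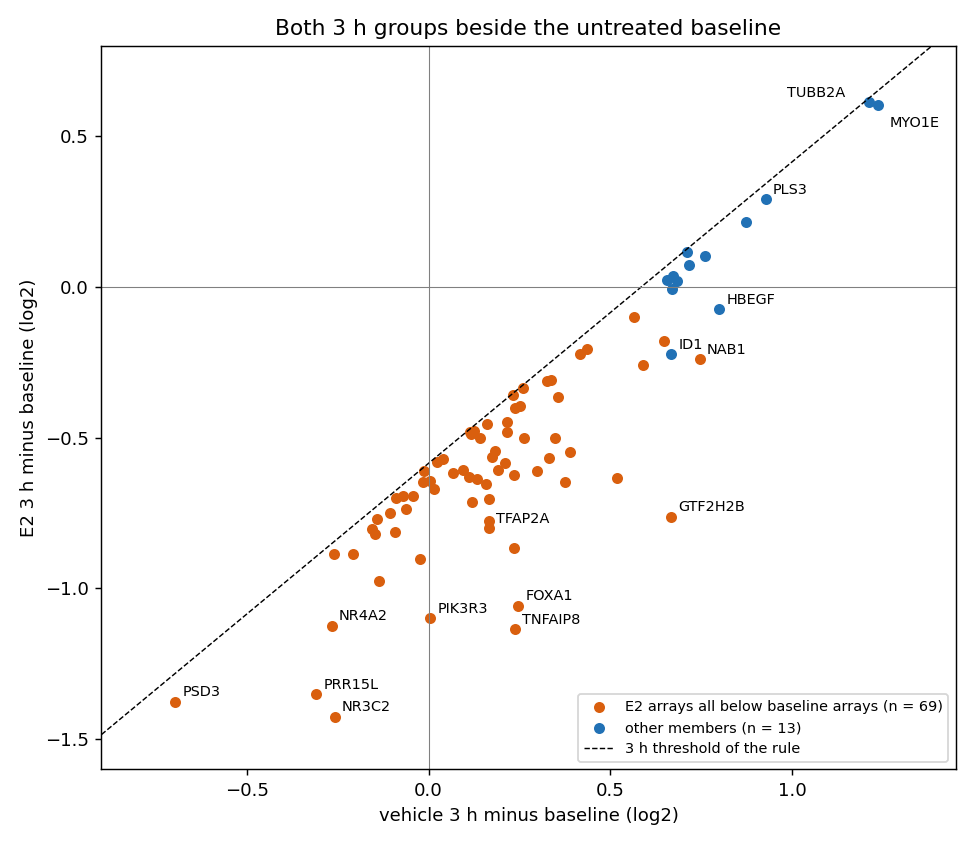
Each point is 1 member, with vehicle minus baseline at 3 h on the x axis and E2 minus baseline at 3 h on the y axis (log2, means of 4 arrays). Orange points are the 69 members whose E2 arrays all lay below baseline, blue points the other 13, and the dashed line is the 3 h threshold of the rule, below which every member lies.

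Transcription factors made up 15 of the members, the largest of 8 role groups that were drawn up with the values known. Their 3 h differences ran from -1.30 to -0.59 with a median of -0.81. In 13 of the 15 the E2 arrays were all below baseline, and in 10 the vehicle arrays were all above it. FOXA1 (probe set 204667_at), the pioneer factor of the estrogen receptor, read 11.51, 11.48, 11.45 and 11.55 in the baseline arrays, 11.77, 11.77, 11.70 and 11.74 with vehicle at 3 h, and 10.28, 10.36, 10.37 and 10.74 with E2 at 3 h. At 24 h it read 11.54, 11.49, 11.45 and 11.45 with vehicle and 11.22, 11.21, 11.22 and 11.22 with E2. Vehicle at 3 h was thus above every baseline array and E2 at 3 h below every one, and E2 at 24 h still lay below all baseline and vehicle arrays. FOXA1 was 2.47-fold lower with E2 than with vehicle at 3 h. Of the -1.30, E2 stood -1.06 ± 0.06 from baseline and vehicle 0.25.

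TFAP2A (204653_at) had the same course at a higher level, with 12.85, 12.91, 12.90 and 12.87 in the baseline arrays, 13.06, 13.06, 13.04 and 13.03 with vehicle at 3 h, and 12.01, 11.98, 12.12 and 12.22 with E2 at 3 h. Its arrays at 24 h read 12.86, 12.84, 12.81 and 12.84 with vehicle and 12.76, 12.76, 12.76 and 12.77 with E2. The 3 h groups lay on opposite sides of baseline with no overlap, and the E2 arrays at 24 h remained just under the baseline arrays. Another probe set of TFAP2A (204654_s_at), at 9.32 with vehicle, differed by -1.40 at 3 h and -0.14 at 24 h, and a further one (210669_at), at 7.04, by -0.50 and 0.01. KLF5 (209212_s_at), a zinc-finger factor of epithelial proliferation, read 8.02, 7.90, 7.99 and 7.94 in the baseline arrays, 8.28, 8.44, 8.36 and 8.27 with vehicle at 3 h, and 7.18, 7.23, 7.34 and 7.51 with E2 at 3 h. Its 24 h arrays read 8.03, 8.06, 7.90 and 8.04 with vehicle and 7.74, 7.83, 7.84 and 7.62 with E2. Vehicle at 3 h was above baseline, E2 at 3 h below it, and E2 at 24 h again below all baseline arrays. Another probe set of KLF5 (209211_at), at 6.64 with vehicle at 3 h, differed by -0.96 at 3 h and by -0.38 at 24 h, outside the rule.

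Both nuclear receptors among the members were low against baseline in both 3 h groups. NR3C2 (205259_at), the mineralocorticoid receptor, read 7.91, 7.97, 8.03 and 7.95 in the baseline arrays, 7.76, 7.65, 7.73 and 7.70 with vehicle at 3 h, and 6.64, 6.47, 6.64 and 6.42 with E2 at 3 h. By 24 h the arrays read 8.10, 8.04, 8.16 and 8.07 with vehicle and 8.15, 8.12, 8.01 and 7.97 with E2. Vehicle at 3 h lay below baseline (-0.26) and E2 far below it (-1.43 ± 0.05), the lowest E2 value against baseline of all members, while at 24 h vehicle lay just above the baseline arrays and E2 overlapped them. NR4A2 (204622_x_at), an orphan nuclear receptor of the immediate-early class, read 10.39, 10.48, 10.47 and 10.46 in the baseline arrays, 10.26, 10.15, 10.18 and 10.14 with vehicle at 3 h, and 9.37, 9.30, 9.33 and 9.30 with E2 at 3 h. After 24 h it stood at 10.45, 10.41, 10.32 and 10.32 with vehicle and 10.37, 10.37, 10.39 and 10.33 with E2, back at the baseline level within 0.1. Its probe set may cross-hybridise, and the other probe sets of NR4A2, 204621_s_at and 216248_s_at, differed by -0.98 and -0.81 at 3 h. Each of these genes had a smaller difference from vehicle than from baseline.

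AHR (202820_at), the ligand-activated aryl hydrocarbon receptor, was the reverse case, with 8.91, 8.96, 8.96 and 9.04 in the baseline arrays, 9.56, 9.93, 9.59 and 9.66 with vehicle at 3 h, and 9.04, 8.87, 9.06 and 9.18 with E2 at 3 h. The 24 h arrays of this gene read 9.04, 9.11, 9.09 and 8.96 with vehicle and 8.86, 8.89, 8.85 and 8.81 with E2. The E2 arrays at 3 h overlapped baseline (0.07) and the vehicle arrays were 0.72 above it, with a 3 h difference of -0.64 ± 0.07. ID1 (208937_s_at), an inhibitor of helix-loop-helix factors, was similar at a dim level, with 6.11, 5.94, 5.95 and 5.78 in the baseline arrays, 6.76, 6.82, 6.35 and 6.53 with vehicle at 3 h, and 5.84, 5.81, 5.61 and 5.63 with E2 at 3 h. Its 24 h arrays read 6.04, 6.16, 5.90 and 5.96 with vehicle and 5.81, 5.93, 5.50 and 5.79 with E2. Only the vehicle arrays at 3 h stood apart from baseline, the E2 mean of 5.72 lay below the dim level, and signals that low compress a difference.

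The other transcription factors were the NOTCH target HEY1 (-0.81), the zinc-finger factors KLF3 (-0.85), OSR2 (-0.61), PRDM4 (-0.60), ZFP64 (-0.60) and ZNF239 (-0.59), and the homeobox genes IRX5 (-0.64) and MNX1 (-0.69). In each of these 8 the E2 arrays at 3 h were all below baseline, by -0.65 in HEY1, -0.50 in KLF3 and IRX5 and -0.36 in ZNF239. IRX5 had a high level, 12.40 with vehicle at 3 h. KLF3 ended at a 24 h difference of 0.00.

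**Figure D3:**
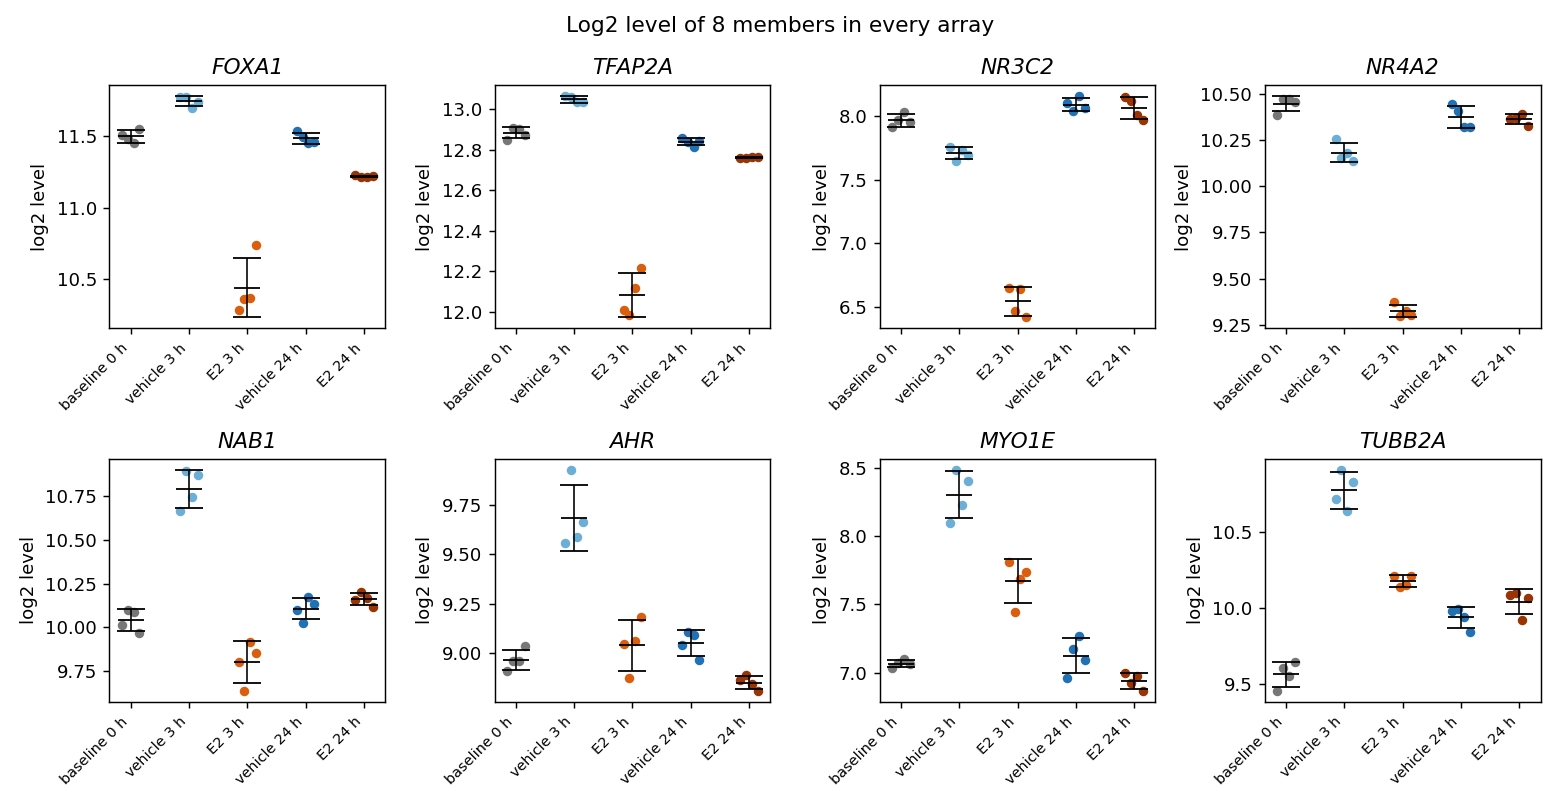
Log2 level of 8 members in every array, with points for arrays, bars for the mean and SD of the 4 arrays, and a separate y axis for each gene that does not start at 0. FOXA1, TFAP2A, NR3C2 and NR4A2 have their lowest arrays in E2 at 3 h, AHR, MYO1E and TUBB2A have their highest in vehicle at 3 h, and NAB1 shows both, with E2 just under baseline.

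Coregulators, chromatin and RNA proteins gave 10 members, and in all 10 the E2 arrays at 3 h lay below baseline. NAB1 (209272_at), a corepressor of EGR factors, read 10.01, 10.10, 10.09 and 9.97 in the baseline arrays, 10.66, 10.89, 10.74 and 10.87 with vehicle at 3 h, and 9.80, 9.64, 9.92 and 9.85 with E2 at 3 h. At 24 h the values were 10.10, 10.03, 10.17 and 10.13 with vehicle and 10.16, 10.20, 10.17 and 10.12 with E2. Vehicle stood 0.75 above baseline and E2 was -0.24 from it without overlap, which gave its difference of -0.99 ± 0.06. Another of its probe sets, 211139_s_at, differed by -0.96. TBL1XR1, part of the NCoR and SMRT corepressor complexes, was the converse, with vehicle -0.02 and E2 -0.90 from baseline. The rest were the bromodomain gene BAZ2B (-0.67), ATF7IP, a partner of the SETDB1 methyltransferase (-0.62), JADE3 (-0.74), the Integrator subunit gene INTS6 (-0.80), the RNA-binding protein gene KHDRBS3 (-0.64), UTP20, a factor of ribosomal RNA processing (-0.61), the ribonuclease gene N4BP1 (-0.73) and GTF2H2B.

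Ligands, receptors and other membrane proteins gave 12 members, with 8 below baseline in all E2 arrays at 3 h and 8 above it in all vehicle arrays. GPER1 (210640_s_at), a G-protein-coupled receptor that has been described as a membrane estrogen receptor, read 7.52, 7.48, 7.51 and 7.59 in the baseline arrays, 7.78, 7.83, 7.75 and 7.78 with vehicle at 3 h, and 7.06, 6.86, 7.13 and 7.04 with E2 at 3 h. At 24 h it read 7.40, 7.27, 7.48 and 7.42 with vehicle and 7.48, 7.68, 7.48 and 7.68 with E2. The 3 h groups lay on opposite sides of baseline, and the 24 h difference was 0.19. A dimmer probe set of GPER1, 211829_s_at at 5.94 with vehicle, differed by -0.42 at 3 h.

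HBEGF (38037_at), a ligand of the epidermal growth factor receptor, read 6.77, 6.79, 6.68 and 6.88 in the baseline arrays, 7.38, 7.59, 7.61 and 7.74 with vehicle at 3 h, and 6.74, 6.54, 6.76 and 6.78 with E2 at 3 h. Its arrays at 24 h read 6.67, 6.61, 6.71 and 6.56 with vehicle and 6.53, 6.63, 6.10 and 6.61 with E2. Vehicle at 3 h alone stood above baseline (0.80) and E2 at 3 h overlapped it (-0.07), while at 24 h the E2 arrays were all below baseline, with 1 array at 6.10. Its probe sets disagreed: 203821_at, at 7.99 with vehicle at 3 h, differed by -1.48 at 3 h and by -0.52 at 24 h, outside the rule, and 222076_at, a dim one at 5.09, by 0.10 at both times. CBLB, a ubiquitin ligase gene that damps receptor signalling, was the 1 other member with a probe set of opposite sign, also a dim one.

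Receptors of WNT and R-spondin signals differed in which 3 h group lay apart from baseline. LGR4 (218326_s_at), a receptor for R-spondins, read 10.57, 10.67, 10.59 and 10.61 in the baseline arrays, 10.66, 10.70, 10.58 and 10.59 with vehicle at 3 h, and 10.14, 9.89, 10.01 and 10.07 with E2 at 3 h. By 24 h the arrays read 10.68, 10.57, 10.45 and 10.54 with vehicle and 10.61, 10.58, 10.60 and 10.59 with E2. Here vehicle overlapped baseline at both times and E2 at 3 h alone was low, by -0.58 ± 0.05. FZD5 (221245_s_at), a WNT receptor, read 8.70, 8.80, 8.76 and 8.77 in the baseline arrays, 9.36, 9.62, 9.44 and 9.34 with vehicle at 3 h, and 8.79, 8.69, 8.80 and 8.83 with E2 at 3 h. After 24 h it stood at 8.79, 8.67, 8.75 and 8.67 with vehicle and 8.84, 8.85, 8.88 and 8.84 with E2. The 24 h E2 arrays lay just above the highest baseline array (mean difference 0.10). At 3 h E2 overlapped baseline and vehicle was high, by 0.68. The 3 h differences were of like size, -0.61 ± 0.05 in LGR4 and -0.66 ± 0.05 in FZD5, with different groups apart from baseline. In VANGL1, of planar cell polarity, vehicle also lay further from baseline than E2 (0.57, beside -0.10). In DIXDC1, a partner of Dishevelled, vehicle was below baseline (-0.14) and E2 further below it (-0.98).

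The remaining members of that role were the adenosine receptor gene ADORA2B (vehicle 0.44, E2 -0.20 from baseline), the sodium pump subunit gene ATP1B1 (0.67 and -0.01), the calcium channel subunit gene CACNB2 (0.23 and -0.87), the synaptic adhesion gene LRFN4 (0.76 and 0.10), TM7SF3 (-0.09 and -0.81), TMEM40 (0.26 and -0.33) and TCAF1 (-0.04 and -0.69). ATP1B1, LRFN4, HBEGF and FZD5 were the 4 of the 12 whose E2 arrays at 3 h were not all below baseline.

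Kinases, phosphatases and signalling adaptors gave 11 members, 10 of them below baseline in all E2 arrays and 9 above it in all vehicle arrays at 3 h. STK17B, a death-associated kinase, was 0.52 above baseline with vehicle and -0.63 with E2. PIK3R3, a regulatory subunit of PI3-kinase, was 0.00 with vehicle and -1.10 with E2. MAP3K5, the stress kinase ASK1 (0.59 and -0.26), and DUSP14, a phosphatase of MAP kinases (0.65 and -0.18), lay further from baseline with vehicle. In the ribosomal S6 kinase gene RPS6KA3 (0.71 and 0.12) only vehicle lay apart from baseline. Others were the microtubule affinity kinase MARK1 (0.33 and -0.57), the pseudokinase TRIB3 (0.36 and -0.37), PTPN21 (0.25 and -0.39), CBLB (0.34 and -0.31) and DIXDC1.

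Regulators of GTPases gave 7 members, and all 7 were below baseline in every E2 array at 3 h. PSD3, an exchange factor for the GTPase ARF6, was -0.70 with vehicle and -1.38 with E2, the lowest vehicle value of all members. Its difference from vehicle was -0.68. RAPGEF6, an exchange factor for RAP proteins (-0.06 and -0.74), and DENND1B (0.00 and -0.64) had vehicle near baseline. TBC1D30, of a family of Rab GAPs, was 0.39 and -0.55, and RIC8B, a chaperone of G-protein alpha subunits, 0.09 and -0.61.

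The cytoskeleton and junction group of 10 had the highest vehicle median of the 8 role groups, 0.66 above baseline at 3 h, beside 0.03 for E2. In 8 of the 10 all vehicle arrays at 3 h were above baseline, and in 4 all E2 arrays were below it. MYO1E (203072_at), an unconventional myosin of the cell cortex, read 7.04, 7.07, 7.10 and 7.06 in the baseline arrays, 8.10, 8.49, 8.23 and 8.40 with vehicle at 3 h, and 7.81, 7.44, 7.69 and 7.74 with E2 at 3 h. The 24 h arrays of this gene read 6.96, 7.17, 7.27 and 7.09 with vehicle and 6.995, 6.92, 6.97 and 6.87 with E2. Both 3 h groups were above baseline with no overlap, and E2 (0.60 ± 0.08) stood lower than vehicle (1.24), so that relative to the untreated cells neither group was low. TUBB2A (204141_at), a beta-tubulin, read 9.45, 9.60, 9.56 and 9.65 in the baseline arrays, 10.72, 10.91, 10.64 and 10.84 with vehicle at 3 h, and 10.21, 10.14, 10.15 and 10.21 with E2 at 3 h.

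At 24 h TUBB2A read 9.98, 10.00, 9.94 and 9.84 with vehicle and 10.09, 10.10, 9.92 and 10.07 with E2, and all 8 of these arrays were still above the baseline arrays. Its probe set may also read close relatives such as TUBB2B. The actin bundler PLS3 (vehicle 0.93, E2 0.29), the actin-binding coronin CORO1C (0.87 and 0.22), ANXA1, annexin A1 (0.67 and 0.04), and SYBU, a linker of kinesin cargo (0.65 and 0.02), followed the same order. MARCKS (-0.14 and -0.77) and MTSS1 (-0.10 and -0.75), both actin and membrane proteins, had vehicle below and E2 far below baseline. PKP2, plakophilin of desmosomes (0.24 and -0.62), and COBLL1 (0.33 and -0.31) lay between.

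Among 5 members for DNA repair, RNA sensing, survival and metabolism, all E2 arrays at 3 h were below baseline. TNFAIP8 (210260_s_at), an inhibitor of apoptosis that TNF induces, read 10.04, 10.12, 10.13 and 10.12 in the baseline arrays, 10.35, 10.41, 10.34 and 10.26 with vehicle at 3 h, and 8.92, 8.84, 9.07 and 9.04 with E2 at 3 h. At 24 h the values were 10.20, 10.19, 10.15 and 10.15 with vehicle and 10.05, 10.11, 10.15 and 9.97 with E2. The 3 h groups did not overlap baseline on either side, and the 24 h arrays lay between 9.97 and 10.20. Its other probe set, 208296_x_at, differed by -1.31 at 3 h and -0.10 at 24 h. The base-excision repair genes APEX2 (vehicle 0.30, E2 -0.61) and UNG (0.02 and -0.67), the viral RNA sensor gene RIGI (-0.26 and -0.88) and GPD2, the mitochondrial glycerol phosphate dehydrogenase (0.19 and -0.61), completed that set.

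A last set of 12 held genes of other or less certain role, and all 12 were below baseline in every E2 array at 3 h. Their values for E2 minus baseline ran from -1.35 in PRR15L to -0.40 in MFHAS1. The others were TRIM36, a ubiquitin ligase gene (vehicle 0.17, E2 -0.78), RNF24 (-0.01 and -0.65), the Golgi protein gene GOLIM4 (0.17 and -0.70), TRAM2 (0.12 and -0.71), PUDP (-0.21 and -0.88), DCPH1 (-0.16 and -0.80), ANKMY2 (0.13 and -0.48), ITPRID2 (0.13 and -0.64), MACIR (0.18 and -0.56) and ZCCHC24 (0.22 and -0.48).

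From 3 h to 24 h the gap between E2 and vehicle closed from both sides in the medians, but not in every member. In 53 members (64.6%) the rise of the E2 mean was the larger part and in 29 the fall of the vehicle mean. The E2 rise was also the larger in 50.6% of all genes and in 59.2% of the 103 genes repressed at both times. No closing gap was required of those genes, so these shares are no background for the 64.6%. The median of E2 at 24 h minus E2 at 3 h was 0.45, and that of vehicle at 3 h minus vehicle at 24 h 0.19. In 23 members vehicle was higher at 24 h than at 3 h. In some others, such as MYO1E (-0.73) and LRFN4 (-0.37), E2 was lower at 24 h than at 3 h. That the gap closed follows from the rule, so these are descriptions. All 53 were among the 69 members whose E2 arrays were below baseline at 3 h. In FOXA1, 75.0% of the closing came from E2, in TFAP2A 76.4%, in TNFAIP8 86.8%, in KLF5 57.2%, in NAB1 34.3% and in FZD5 9.45%. By role, all 7 regulators of GTPases and 12 of 15 transcription factors closed mostly by E2, against 3 of 10 cytoskeleton and junction genes and 4 of 11 kinases and adaptors.

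**Figure D4:**
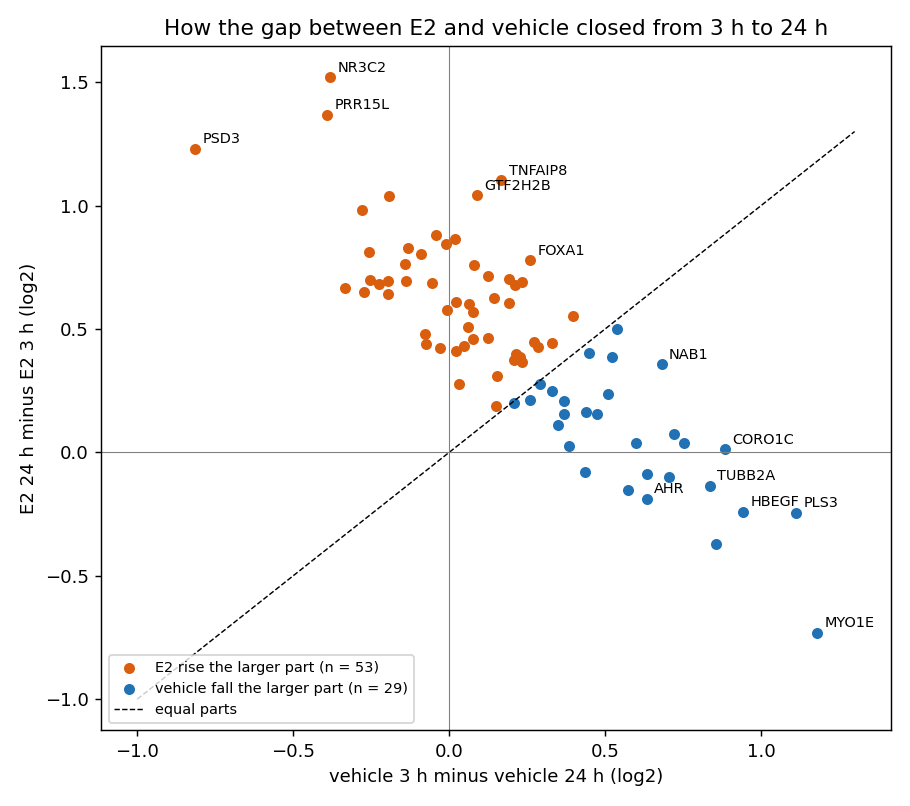
Each point is 1 member, with the fall of the vehicle mean from 3 h to 24 h on the x axis and the rise of the E2 mean over the same time on the y axis (log2). The 53 orange points above the dashed line of equal parts closed mostly by E2, with NR3C2, PRR15L and PSD3 at the top left, and the 29 blue points mostly by vehicle, with MYO1E, PLS3 and HBEGF at the lower right.

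At 24 h 74 of the 82 members lay within 0.3 of baseline in both groups. The 8 others were GOLIM4, INTS6, MFHAS1, GPD2, HBEGF and KHDRBS3, which were lower with E2, TUBB2A, which was higher in both groups, and GTF2H2B, which was higher with vehicle. The same share over all genes was not counted, so nothing particular to the members is read from the 74. Medians of all genes against baseline were -0.01 with vehicle and -0.006 with E2 at 24 h, which does not give that share. Comparisons with baseline at 24 h did not enter the rule directly and were tested with limma over all 11963 genes with Benjamini-Hochberg adjustment at 0.05. The rule did hold the 24 h groups within 0.3 of each other, and both comparisons share the baseline arrays, so they do not count as separate support.

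With vehicle at 24 h, 13 members rose and 3 fell against baseline, where 7.55% of all genes rose and 4.37% fell. Among genes at the level threshold 10.1% rose and 5.35% fell. The largest rises were in GTF2H2B (0.58 ± 0.13, adjusted p = 0.0067 by limma with Benjamini-Hochberg adjustment), TUBB2A (0.37 ± 0.06, adjusted p = 0.00017), ZNF239 (0.26), DENND1B (0.26) and OSR2 (0.21). The falls were in INTS6 (-0.16), MFHAS1 (-0.15) and UTP20 (-0.10), and all 3 of these calls were lost without baseline replicate A, without baseline replicate B and without 24 h vehicle replicate B. The members' shares, 15.9% rising and 3.66% falling, stand beside those backgrounds as a description. Other members that rose by this test included MARCKS (0.19), TM7SF3 (0.19), MACIR (0.18), RAPGEF6 (0.16), MTSS1 (0.15), BAZ2B (0.13) and TRAM2 (0.10).

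With E2 at 24 h, 8 members rose and 32 (39.0%) fell against baseline, where 19.2% of all genes rose and 22.4% fell. Among genes at the level threshold 24.2% rose and 30.1% fell. The members' shares stand beside those backgrounds as a description, since the rule used the 24 h difference from vehicle, which was below 0 in 63 members. The deepest falls were in GOLIM4 (-0.50 ± 0.09, adjusted p = 0.00017 by limma with Benjamini-Hochberg adjustment), INTS6 (-0.43 ± 0.04, adjusted p = 7.0e-08), MFHAS1 (-0.38 ± 0.05), GPD2 (-0.36 ± 0.06) and HBEGF (-0.31 ± 0.10, adjusted p = 0.012). FOXA1 fell by 0.28, KLF5 by 0.21 and TFAP2A by 0.12, each past the threshold (limma with Benjamini-Hochberg, adjusted p = 0.0015, 0.015 and 0.014). These 3 transcription factors were within 0.3 of vehicle at 24 h by the rule and below the untreated level by this test. The rule used the same 24 h E2 arrays, so these calls are not independent of the selection. LRFN4 fell by 0.27. The rises were in TUBB2A (0.48 ± 0.06), SYBU (0.26), RIC8B (0.26), OSR2 (0.23), CORO1C (0.23), TM7SF3 (0.17), ATF7IP (0.15) and ITPRID2 (0.12).

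Several members did not pass the test against baseline in either 24 h group. NR3C2 stood at 0.12 ± 0.05 with vehicle and 0.10 ± 0.05 with E2, TNFAIP8 at 0.07 and -0.03, NR4A2 at -0.07 and -0.08, NAB1 at 0.06 and 0.12, LGR4 at -0.05 and -0.01, and AHR at 0.08 and -0.12. Their limma adjusted p-values after Benjamini-Hochberg ran from 0.061 for NR4A2 with E2 to 0.87 for LGR4 with E2. MYO1E, whose vehicle mean at 3 h stood highest against baseline, was at 0.06 and -0.13 at 24 h. A p over the threshold does not show that a level had returned to baseline.

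**Figure D5:**
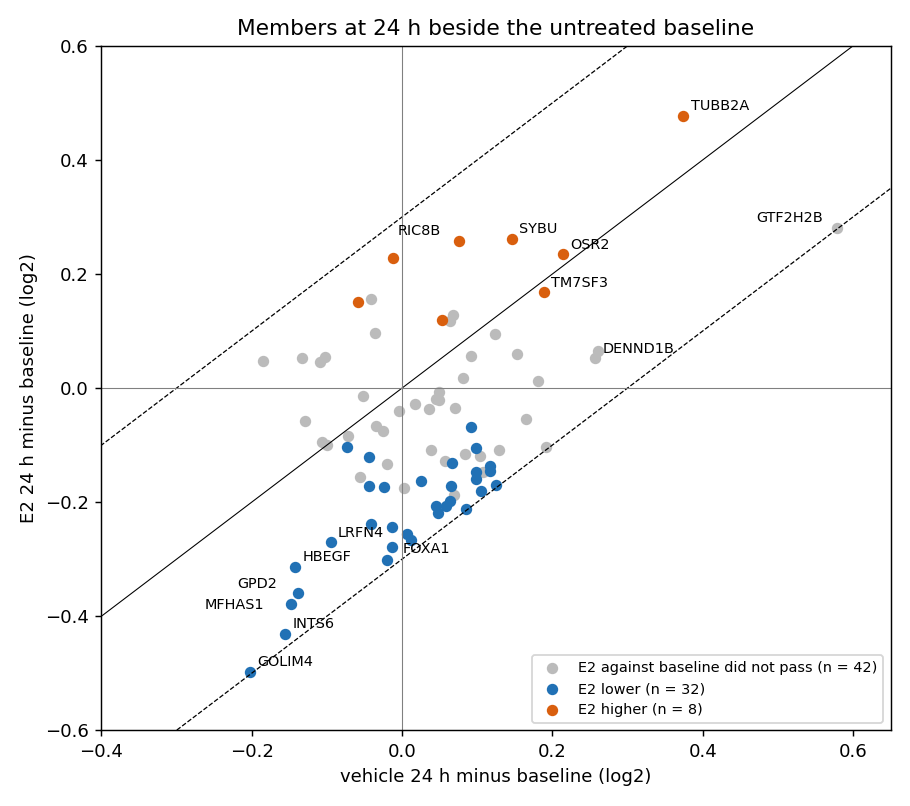
Each point is 1 member, with vehicle minus baseline at 24 h on the x axis and E2 minus baseline at 24 h on the y axis (log2); dashed lines mark the 24 h limit of the rule and the solid line equal values. Blue points are the 32 members that fell with E2 by limma, orange points the 8 that rose, and grey points the 42 that did not pass.

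Gene lists of pathways and families were drawn up with earlier results of these data known, and 10 of the 17 held 1 to 3 members each. At 3 h, 13.5% of all genes were called higher with E2 and 17.6% lower by limma with Benjamini-Hochberg adjustment. The list counts include the members, which the rule chose as low at 3 h, so their falls are no test. Of 18 measured luminal lineage factors 9 rose and 8 fell, with a median of 0.00 and with FOXA1 and TFAP2A as members. Of 31 homeobox, forkhead and T-box factors 5 rose and 11 fell (median -0.02), with IRX5 and FOXA1 as members. Of 27 helix-loop-helix factors 8 rose and 11 fell (median -0.08), with ID1, HEY1 and AHR as members. The KLF and EGR list had 4 rising and 4 falling of 26 (median 0.04), with KLF3 and KLF5 as members. All of these medians stand beside 0.0002 over all genes.

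Of 37 receptor tyrosine kinase and MAPK feedback genes 6 rose and 17 fell (median -0.07), with HBEGF as the 1 member. NOTCH and WNT genes rose in 7 and fell in 15 of 36 (median -0.05), with HEY1 and FZD5, and TGF-beta and BMP genes rose in 8 and fell in 19 of 42 (median -0.15), with ID1. Of 39 adhesion genes 4 rose and 15 fell (median -0.07), with the plakophilin gene PKP2. Small GTPase genes rose in 8 and fell in 13 of 32 (median 0.02), with 1 member, and immediate-early genes rose in 9 and fell in 8 of 24 (median 0.07), with NR4A2. Lists with 0 members were those for RNA decay (5 rose and 11 fell of 22), cyclic AMP (7 and 10 of 32), NF-kB (8 and 13 of 33), ephrins and guidance (6 and 9 of 37), the BCL2 family (3 and 3 of 16), glucose handling (5 and 5 of 22) and the circadian clock (1 and 8 of 14). By symbol, members made up 0.685% of all genes, with 0 of 248 solute carriers and 1 of 235 ZNF genes.

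Of the 82 members, 35 had more than 1 single-symbol probe set, with 55 further probe sets in all. Of these, 53 differed below 0 at 3 h and 2 above, the dim ones of HBEGF and CBLB. The 43 further probe sets with a vehicle mean of at least 6.5 at 3 h were all below 0, with a median of -0.69, and 27 of them passed the 3 h threshold and 18 the whole rule. They are read from the same arrays and are no replication. For the other 47 members 1 probe set is the only reading.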

How the data were processed

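The deposited table holds 1 log2 value per probe set and array. Per the submitters' processing notes the authors used RMA and affy, whose versions are not given in the sources used here. RMA normalizes arrays to like distributions, so a shift in the total RNA of a cell is not visible. Of 22277 probe sets, 62 controls were left out, 1043 with several symbols and 2108 with none were not used for genes, and 19064 gave 11963 genes. No filter on dim genes was applied. All 20 arrays entered 1 limma 3.58.1 fit (R 4.3.3, lmFit and eBayes, two-sided, a mean per group, no block), tested on simulated data first. Python 3.11.15 with pandas 2.3.3 did the rest. Adjusted p-values are Benjamini-Hochberg over all genes, threshold 0.05. Errors after ± are standard errors of that fit unless SD is named. Group comparisons without overlap count arrays and are not tests.

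The members, gene lists and alternatives were chosen with earlier results of these data known. Values of all 3 h groups, and the 24 h difference between E2 and vehicle, bear on that choice. For the members they were described, and limma calls of members on these contrasts are counts with nothing read from them. Genes were named by a rule: the 15 members most negative at 3 h, members on a gene list, the 6 largest rises and 6 largest falls of the 24 h mean against baseline, the 3 genes nearest each side of each threshold, and members whose probe sets disagree in sign by over 0.3. The other members were named after their values were seen, and the values of 3 of the 82 are not reported here. Replicate letters share nothing by the labels. Alternatives changed the thresholds, the probe set per gene, the centring, the arrays fitted, their weights and the prior on variances, added a replicate block, or left out single arrays. No columns of other samples were used. Promoter sequences are from RefSeq (GRCh38.p14), and the build of the array annotation is not given in the sources used here.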

Additional observations from a re-analysis of the deposited data

Results flagged for a closer look

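In KLF5, 1 of the 4 arrays of vehicle at 24 h stood apart, at 7.90 against 8.03, 8.04 and 8.06. Its gap to the nearest array was 0.836 of the range of the group, past the limit of Dixon's test. It was the 1 such group among 80 tested, those of the 15 members whose arrays are given and of the members' median in each group, and chance gives about 1 in 20.

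Outside the gene table, 10 probe sets with several symbols or none met the same thresholds. The most negative at 3 h was 207141_s_at, unnamed here, at -1.42, with a 24 h difference of -0.24. Next were 215599_at (GUSBP17 and GUSBP3, -1.28), 220549_at (FSBP and RAD54B, -1.24) and 209631_s_at (SEL1L2 and GPR37, -1.11). The probe set 221540_x_at, shared by GTF2H2, GTF2H2C and the member GTF2H2B, differed by -0.65, less than the -1.43 of the probe set used for GTF2H2B. The other 5 ran from -0.97 in 206429_at to -0.59 in 203274_at (F8A1, F8A2 and F8A3). These probe sets were read on the same arrays as the members and are given as values with no test.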

How the results depend on the processing

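Of the counts compared under alternatives, 287 stayed within 1.5 times the reported value and 16 did not. With the 3 h threshold at -0.7 the rule gave 37 members, 35 with E2 below baseline, 26 with vehicle above it and 26 closing mostly by E2. With the 24 h limit at 0.2 these were 49, 40, 31 and 32. Leaving out 1 array gave 73 to 86 members, of which 73 to 82 were shared with the 82. Members that fell with vehicle at 24 h numbered 5 with a trended and robust prior, 5 with array weights, 0 at an adjusted p of 0.01 and 0 to 4 leaving out 1 array, against 3. At 0.01, 9 members and 784 genes of all were called for vehicle at 24 h, against 16 and 1426. For single genes, 365 calls stayed as reported, 12 lost the threshold and 7 passed it, and 0 changed sign. INTS6 and MFHAS1 lost their vehicle calls in several settings. With a replicate block 15 members were called for vehicle at 24 h and 44 for E2, and it took no count past 1.5 times. Same-letter arrays of different groups deviated together at -0.245 to 0.370 (median 0.0069), with 6 of 40 pairs over 0.1, and in 18 of 80 comparisons of an array with another group its own letter correlated best, so the letters were not taken as pairs.

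Arrays limit these results by signal over background. The E2 means of ID1, ZNF239 and RIGI at 3 h lay below the dim level of 6.11, where differences are compressed. No detection calls were used. Centring each array on its median gave 82 members, 77 of them shared.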

Other observations

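Close relatives of members fell, rose or did not pass at 3 h, by limma with Benjamini-Hochberg adjustment over all genes; those named were chosen after their values were seen, so no share is drawn from them. Beside ID1, the helix-loop-helix inhibitors ID2 (-1.50 ± 0.04) and ID3 (-1.73 ± 0.07) fell at 3 h and still differed by -0.81 and -0.44 at 24 h, outside the rule, while ID4 (-0.12 ± 0.06, adjusted p = 0.15) did not pass. Beside TFAP2A, TFAP2C rose by 0.22 ± 0.03. Beside NR4A2, NR4A1 (-0.13 ± 0.07, adjusted p = 0.14) and NR4A3 (0.12 ± 0.08, adjusted p = 0.32, a dim probe set) did not pass. Beside HEY1, the related repressors HEY2 and HES1 rose by 1.98 ± 0.05 and 1.12 ± 0.05.

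Beside HBEGF, TGFA, another ligand of the same receptor, rose by 1.67 ± 0.04 at 3 h and differed by 0.07 at 24 h. Among WNT receptors beside FZD5, FZD7 rose by 1.98 ± 0.04, FZD1 fell by 0.54, FZD4 by 0.88 and the dim FZD2 by 0.28, with 24 h differences of 1.40, 0.14, -0.55 and -0.06. Among KLF genes beside KLF3 and KLF5, KLF13 fell by 0.38 and KLF6 by 0.14, KLF9 rose by 0.26 ± 0.08 (adjusted p = 0.012), and the 8 others in the gene list (KLF2, KLF4, KLF7, KLF8, KLF10, KLF11, KLF12 and KLF15) did not pass. Of those, KLF4 stood at 0.13 ± 0.05 (adjusted p = 0.071).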
